A study of Mus musculus with 30 samples.

Results

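The genes of fatty acid uptake, storage, mitochondrial oxidation and peroxisome proliferator-activated receptor (PPAR) control were followed in quadriceps muscle by RNA-seq. They were taken by name from the table of raw gene counts and comprised 39 of the 56748 genes in it. Each of the 39 had a row, and each was among the 17518 genes that passed the filter on low counts and were tested. By role, 3 act in uptake, 6 in lipolysis and the lipid droplet, 6 in activation and mitochondrial entry, 12 in beta-oxidation and 3 in electron transfer from it, 6 are PPAR targets known to respond to fasting, and 3 are regulators.

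The 30 mice fell into 8 groups. WT (n = 5) were FVB/N mice, and all others were HSA-LR20b mice, a model of myotonic dystrophy type 1 on the same background that is homozygous for a human skeletal actin transgene carrying an expanded CTG repeat, so that the repeat RNA is made in skeletal muscle. NT (n = 8) mice were nontreated. L9 is an antisense oligonucleotide of locked nucleic acid bases complementary to the CUG repeat, and pacDNA is its conjugate with a bottlebrush polymer of polyethylene glycol. The conjugate, pacDNA-L9, was given to 4 mice at 5.3 mg/kg, to 3 mice at 21.2 mg/kg and to 3 mice at 42.4 mg/kg, the unconjugated oligonucleotide, free L9, at 5.3 mg/kg (n = 3), a conjugate of a scrambled sequence, pacDNA-Scr, at 5.3 mg/kg (n = 2), and the polymer alone, Brush, at 40 nanomoles (n = 2). Agents were injected into the tail vein of mice aged about 8 weeks, and muscle was taken 2 weeks after the last injection. The doses above 5.3 mg/kg were given as repeated injections, so dose and number of injections cannot be told apart. The strain was given in the labels for the first deposited set of samples only.

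Long-chain fatty acids enter the muscle fibre from circulating triglyceride or from the droplet, are joined to coenzyme A, pass the mitochondrial membranes as carnitine esters and are shortened by the enzymes of beta-oxidation. PPARα and PPARδ are nuclear receptors that fatty acids activate, and they raise transcription of many of these genes. In fasting, skeletal muscle is known for a shift from glucose to fatty acid use, in which Pdk4, an inhibitor of pyruvate dehydrogenase, rises strongly.

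Libraries held between 13605309 and 26956558 counts. The 6 libraries of the second deposited set (free L9 C, mouse C given 21.2 mg/kg, mice C and D given 5.3 mg/kg of the conjugate, and NT 7 and NT 8) stood apart on the first principal component, which held 59.9% of the variance, and 5 of them listed no mitochondrially encoded counts. The set was therefore a term of the main fit, and some alternative fits left it out. The 3 libraries of the 42.4 mg/kg group and 6 others (NT 6, the WT mouse without a number, free L9 A and B, Brush B and pacDNA-Scr B) bore column names made of the group and a running number alone. At equal depth these 9 libraries held 14438 to 18634 detected genes, against 18637 to 20350 in the other 15 of the first set, and results are given below with this name form as a covariate where it ended a call. Among NT mice NT 6 alone had this name form. Without NT 6, name form and treatment at 42.4 mg/kg cannot be told apart in the comparison with NT. All 3 mice at 42.4 mg/kg were female, against 4 of 8 NT mice. Levels are CPM, the share of a library's counts as parts per 1000000, scaled by trimmed mean of M values. Differences are log2 fold changes ± SE from the quasi-likelihood fit of edgeR over all 30 libraries, adjusted by Benjamini-Hochberg over the 17518 genes tested, and a gene is called at an adjusted p under 0.05. Intervals of 95% take the normal distribution of the estimate.

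None of the 39 genes was called between NT and WT mice, the comparison of the disease model with its background strain. Across all genes tested 5.31% were called in this comparison, which was 930 genes, against 0 of 39 here, with 0 of 39 at an unadjusted p under 0.05 in edgeR and 0 called by DESeq2. The 39 differences ran from −0.90 to 0.29 with a median of −0.16, beside −0.03 for all genes, and 34 of them were negative. The smallest p belonged to Ppara, the receptor PPARα. Its level was 4.13, 13.1, 5.97, 9.45 and 4.01 CPM in the 5 WT mice and 2.06 to 6.68 with a median of 3.89 CPM in NT mice, so the groups overlapped. The difference was −0.78 ± 0.40 (adjusted p = 0.341). Plin5, a droplet coat protein of oxidative tissue, was at 23.7, 13.9, 8.12, 20.7 and 42.5 CPM in WT and 7.45 to 25.6 CPM in NT (−0.84 ± 0.44, adjusted p = 0.363). The next were Eci2 at 0.26 ± 0.16 (adjusted p = 0.444), Lpl at −0.54 ± 0.35 (adjusted p = 0.486) and Fabp3 at −0.72 ± 0.48 (adjusted p = 0.512). Pdk4 varied widely among these mice, at 344, 98.9, 66.1, 124 and 1075 CPM in WT and 88.5 to 923 CPM in NT (−0.38 ± 0.67).

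At 42.4 mg/kg, 8 of the 39 genes were higher than in NT mice and none was lower. They were Pdk4, Acot1, Acot2, Ucp3, Plin5, Plin4, Ppargc1a and Cpt1a, with fitted folds from 1.91 for Cpt1a to 14.7 for Pdk4. Among all genes tested 3.14% were called in either direction and 2.28% were called higher. The median difference of the 39 genes was 0.48, against −0.02 over all genes, and 34 of 39 were positive. With library name form as a covariate the median of the 39 was 0.05. In 12 of the 39 every mouse at 42.4 mg/kg lay above every NT mouse, which held for 3.95% of all genes. The rise was uneven over the pathway, with 4 of the 6 fasting-responsive targets and 2 of the 6 lipolysis and droplet genes called, and none of the 12 beta-oxidation enzymes. The genes and lists were chosen with earlier results of these data known, so these counts are not independent evidence of where the rise lay. In the same mice the summed level of 10 macrophage markers was 251 to 371 CPM, against 66.3 to 131 CPM in NT, and its part in these differences was not tested. In whole muscle a change in the number of cells of a type and a change in RNA per cell cannot be told apart.

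**Figure D1:**
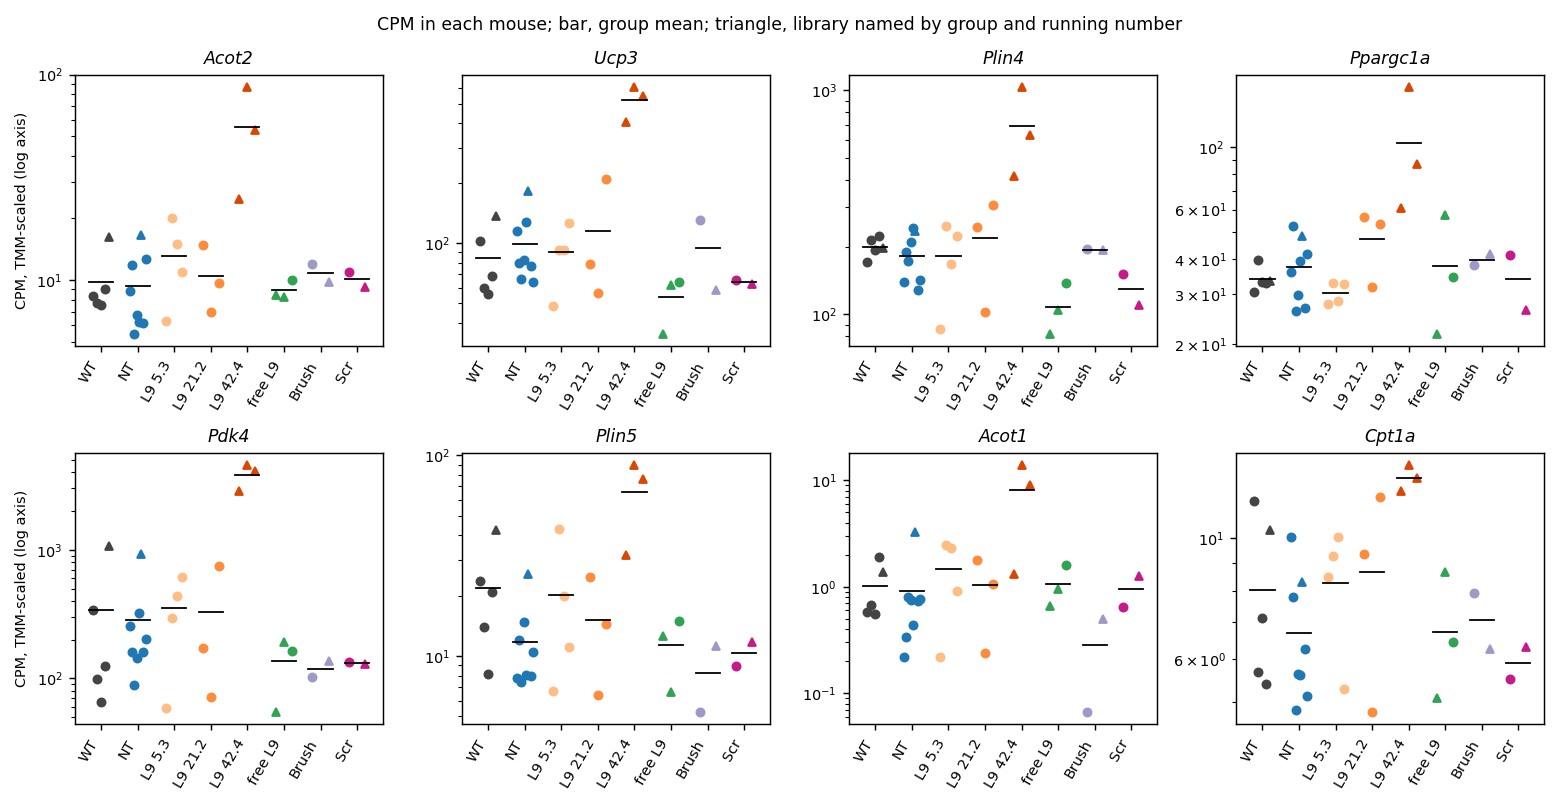
Level of the 8 genes called at 42.4 mg/kg against NT, in CPM on a log axis, 1 point for each of the 30 mice by group, with a bar at the group mean and triangles for the 9 libraries named by group and running number; L9 with a number stands for pacDNA-L9 at that dose in mg/kg. The 42.4 mg/kg group has the highest mean in each panel, and Acot1 is the 1 gene whose lowest 42.4 mg/kg mouse, at 1.31 CPM, lies among the NT mice.

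The PPAR targets that respond to fasting held the largest differences. Pdk4 phosphorylates and so inactivates pyruvate dehydrogenase, which keeps pyruvate from being oxidised. The gene (ENSMUSG00000019577) lies on chromosome 6 (GRCm39, 5483097-5496339, minus strand). It stood at 2868, 4554 and 4126 CPM in mice A, B and C at 42.4 mg/kg, and at 88.5, 183 and 923 CPM as the lowest, median and highest of 8 NT mice. No other mouse of the 27 exceeded 1075 CPM, the level of the unnumbered WT mouse. The difference from NT was 3.88 ± 0.74 (adjusted p = 0.00301, 14.7-fold). With the name form of the library as a covariate it was 2.76 ± 0.72 (adjusted p = 0.0588), which ended the call, and Pdk4 was above the other 6 libraries of that name form in all 3 mice.

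Ucp3 is an uncoupling protein of the inner mitochondrial membrane in muscle that accompanies fatty acid oxidation (ENSMUSG00000032942, chromosome 7, 100122136-100135976, plus strand). Its level was 406, 607 and 548 CPM at 42.4 mg/kg and 63.9 to 183 CPM with a median of 81.3 in NT mice. The groups did not overlap, and the difference was 2.44 ± 0.34 (adjusted p = 8.81e-05). Acot2, a mitochondrial thioesterase that splits acyl-coenzyme A, was at 24.7, 87.1 and 54.0 CPM against 5.46 to 16.6 CPM in NT (2.57 ± 0.34, adjusted p = 3.57e-05). Acot2, Ucp3 and Plin4 remained called in all 42 alternative fits. Acot1, the cytosolic relative of Acot2, was at 1.31, 13.9 and 8.99 CPM against 0.217 to 3.27 CPM with a median of 0.749 in NT. Mouse A thus lay within the NT range, and the difference of 3.15 ± 0.66 (adjusted p = 0.00518) was no longer called with name form as a covariate (2.33 ± 0.75, adjusted p = 0.141) or without mouse B (2.51 ± 0.74, adjusted p = 0.149).

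Acot1 and Acot2 lie on chromosome 12 (GRCm39, 84056256-84065145 and 84034428-84040647, plus strand) and have similar transcripts. Of the 2131 windows of 150 bases, the read length, in the Acot1 transcript, 209 (9.81%) occur unchanged in Acot2, so reads from these windows could have been counted for either gene. Angptl4 codes for a secreted inhibitor of lipoprotein lipase. It was at 27.9, 29.1 and 40.7 CPM at 42.4 mg/kg and 0.910 to 27.2 CPM in NT, where the second value came from NT 4 alone and the median was 3.02. All 3 treated mice were above all NT mice, but the difference of 2.42 ± 0.80 was not called (adjusted p = 0.121). Acot13, a thioesterase associated with mitochondria, was the exception in this set, at 59.1, 53.0 and 61.8 CPM against 48.3 to 78.8 CPM in NT (−0.08 ± 0.16). On the opposite strand 74.5% of the Acot13 exon bases overlap exons of BC005537. Summed over the 6 targets the level was 3387 to 5343 CPM at 42.4 mg/kg and 224 to 1203 CPM in NT mice. Most of this sum was Pdk4, with a mean of 3849 of 4523 CPM at 42.4 mg/kg and 282 of 458 CPM in NT.

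The PPAR response element is a direct repeat of AGGTCA with 1 base between the copies. Promoter sequences from RefSeq (GRCm38.p6, 300 bases from 250 before to 50 after a start) covered 33 of the 39 genes in 36 promoters. A single copy of AGGTCA was present on either strand in 9 of 36 (25%), against 16.3% of all 32841 promoters. The repeat with up to 2 mismatches outside the spacer, which can overlap single copies, was in 6 of 36 (16.7%), those of Cd36, Echs1, Etfa, Plin2, Slc25a20 and Ucp3, against 3.86% of all promoters, and in 0 of 36 with up to 1 mismatch. The 250 bases before the start are printed for 4 genes that show how matches and changes were combined: Ucp3 rose and holds a match, Echs1 holds a match and was not called, and Pdk4 and Acot2 rose and hold none in this window. They are given 5′ to 3′ on the strand of the gene, with single copies and repeat matches in capitals, from chr7:100472741-100472990 (plus) for Ucp3, chr7:140116422-140116671 (minus) for Echs1, chr6:5496279-5496528 (minus) for Pdk4 and chr12:83987611-83987860 (plus) for Acot2.
Ucp3: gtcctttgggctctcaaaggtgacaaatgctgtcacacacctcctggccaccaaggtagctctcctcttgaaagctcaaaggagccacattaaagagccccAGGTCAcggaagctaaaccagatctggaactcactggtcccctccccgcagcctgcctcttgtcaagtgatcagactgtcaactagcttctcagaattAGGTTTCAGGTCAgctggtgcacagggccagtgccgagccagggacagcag
Echs1: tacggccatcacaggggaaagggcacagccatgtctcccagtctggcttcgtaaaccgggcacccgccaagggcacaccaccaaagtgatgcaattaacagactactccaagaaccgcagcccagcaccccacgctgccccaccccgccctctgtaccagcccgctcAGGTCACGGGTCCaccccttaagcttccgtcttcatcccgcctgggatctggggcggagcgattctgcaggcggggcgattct
Pdk4: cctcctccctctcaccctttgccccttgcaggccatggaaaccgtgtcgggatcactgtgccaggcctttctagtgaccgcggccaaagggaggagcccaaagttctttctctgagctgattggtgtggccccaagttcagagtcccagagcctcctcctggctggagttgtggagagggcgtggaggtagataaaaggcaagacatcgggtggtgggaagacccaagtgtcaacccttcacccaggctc
Acot2: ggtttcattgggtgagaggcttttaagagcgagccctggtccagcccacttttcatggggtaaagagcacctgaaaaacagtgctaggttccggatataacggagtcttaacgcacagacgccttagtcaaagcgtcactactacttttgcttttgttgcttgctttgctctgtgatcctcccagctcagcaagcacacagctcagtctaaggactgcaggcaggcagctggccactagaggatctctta
The match of Ucp3, AGGTTTCAGGTCA, begins 51 bases before the start and ends in the copy of AGGTCA at 44 bases before it, and a second copy begins 149 bases before the start. The match of Echs1, AGGTCACGGGTCC, begins 83 bases before the start. Of the 6 genes with a match, Ucp3 was the 1 called at 42.4 mg/kg against NT.

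Lipolysis and droplet genes gave the second part of the rise. Plin4 codes for a perilipin, a coat protein of lipid droplets. It was at 416, 1037 and 635 CPM at 42.4 mg/kg and 129, 181 and 243 CPM as the lowest, median and highest NT mice. There was no overlap, and the difference was 1.95 ± 0.28 (adjusted p = 9.2e-05). On the opposite strand 39.1% of the Plin4 exon bases overlap exons of Hdgfl2, and whether counting used strand is not given in the sources used here. Plin5, which ties droplets to mitochondria, was at 31.8, 89.3 and 76.1 CPM against 7.45 to 25.6 CPM in NT (2.43 ± 0.49, adjusted p = 0.00421). The Plin5 call was lost with name form as a covariate (1.84 ± 0.56, adjusted p = 0.116) and without mouse B (2.14 ± 0.55, adjusted p = 0.0773).

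Both droplet genes that were called lie close together on chromosome 17 (GRCm39, Plin4 at 56406617-56416931 and Plin5 at 56418446-56424610, minus strand). Pnpla2 is the lipase of the first step of triglyceride breakdown, and it was at 479, 838 and 586 CPM against 161 to 510 CPM in NT (0.90 ± 0.26, adjusted p = 0.0544). Plin3 was at 30.5, 47.6 and 37.2 CPM against 11.4 to 25.4 CPM in NT (0.97 ± 0.29, adjusted p = 0.0676). Plin2, the perilipin found in most tissues, was at 43.1, 47.2 and 45.3 CPM against 28.1 to 65.8 CPM (0.16 ± 0.26), and Lipe, hormone-sensitive lipase, at 30.2, 32.7 and 38 CPM against 12.5 to 131 CPM (−0.23 ± 0.64). Plin3 was called by DESeq2 (adjusted p = 0.0461) and with sex as a covariate (adjusted p = 0.0331), and all 3 treated mice lay above every NT mouse. Pnpla2 was called by DESeq2 (adjusted p = 0.0324), with sex as a covariate (adjusted p = 0.0423) and without NT 6 (adjusted p = 0.0236). Other edgeR fits called neither gene. Adjusted p for Pnpla2 was 0.395 with name form as a covariate, 0.514 without mouse B and 0.153 in the first deposited set alone. For Plin3 it was 0.37, 0.448 and 0.153 in the same fits.

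Of the 6 genes of activation and mitochondrial entry, Cpt1a alone was called. It codes for the liver isoform of the outer-membrane carnitine palmitoyltransferase, which controls entry (ENSMUSG00000024900, chromosome 19, 3371853-3437996, plus strand). Its level was low, at 12.2, 13.6 and 12.9 CPM against 4.83 to 10.0 CPM in NT, and every treated mouse was above the other 27 mice. The difference of 0.93 ± 0.26 (adjusted p = 0.0479) was near the threshold, and the call held in 16 of 42 alternative fits, with adjusted p up to 0.473. With name form as a covariate in edgeR the difference of Cpt1a was 0.76 ± 0.33 (adjusted p = 0.358), which ended the call. Mlycd, which removes the Cpt1 inhibitor malonyl-coenzyme A, was at 124, 166 and 150 CPM against 46.4 to 118 CPM (0.95 ± 0.29, adjusted p = 0.0696). Slc25a20, the carrier of carnitine esters through the inner membrane, was at 72.3, 87.8 and 83.3 CPM against 39.3 to 71.8 CPM (0.67 ± 0.22, adjusted p = 0.0995). Acsl1, a ligase that joins fatty acids to coenzyme A, was at 299, 382 and 360 CPM against 188 to 282 CPM (0.49 ± 0.21, adjusted p = 0.297). These 3 did not overlap with NT but missed the threshold, and Cpt2, the inner-membrane transferase, differed by 0.15 ± 0.18. Mlycd was called by DESeq2 (adjusted p = 0.0463), with sex as a covariate (adjusted p = 0.0254) and without NT 6 (adjusted p = 0.0292), and Slc25a20 without NT 6 (adjusted p = 0.045). Adjusted p for Mlycd was 0.362 with name form as a covariate, 0.376 without mouse B and 0.173 in the first deposited set alone. For Slc25a20 it was 0.622, 0.439 and 0.232 in the same edgeR fits.

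Cpt1b is the muscle isoform of Cpt1, yet it was listed at 0.341 to 1.96 CPM over the 30 libraries, from 6 to 45 counts each. Per kilobase of transcript its mean level in NT mice was 0.272 CPM, below the 1.02 CPM of Cpt1a. In the annotation 68.5% of its exon bases are shared on the same strand with the gene model Gm44502, itself listed at 0 to 4 counts. The level of Cpt1b is therefore uncertain, and its difference at 42.4 mg/kg was 0.48 ± 0.39 (adjusted p = 0.702). Etfb shares 43.5% of its exon bases in the same way with Etfbl, listed at 0 to 5 counts.

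In uptake, none of the 3 genes was called. Cd36, the fatty acid transporter of the cell surface, was at 276, 383 and 478 CPM against 124 to 328 CPM in NT (0.83 ± 0.33, adjusted p = 0.218). Lpl, the lipase that frees fatty acids from circulating triglyceride, was at 389, 585 and 669 CPM against 233 to 556 CPM (0.53 ± 0.40, adjusted p = 0.664). Fabp3, the fatty acid binding protein of muscle cytosol, was at 312, 355 and 545 CPM against 136 to 511 CPM (0.84 ± 0.55, adjusted p = 0.594). On the opposite strand 38.5% of the Fabp3 exon bases overlap exons of Zcchc17. In each of the 3 the ranges overlapped, and per kilobase Fabp3 was the most abundant of the 39 genes in NT mice, at a mean of 282 CPM.

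The enzymes of beta-oxidation itself were not called. Over the 12 (Acadvl, Acadl, Acadm, Acads, Hadha, Hadhb, Hadh, Echs1, Acaa2, Eci1, Eci2 and Decr1) differences at 42.4 mg/kg against NT ran from −0.13 for Hadh to 0.53 for Eci2, with a median of 0.12, which was −0.12 with library name form as a covariate. Hadha, the α subunit of the trifunctional protein, which carries out consecutive steps on long chains, was at 369, 423 and 426 CPM against 277 to 498 CPM with a median of 335 in NT. That difference was 0.21 ± 0.19, with a 95% interval from −0.17 to 0.58. Eci2, an isomerase for unsaturated chains, was at 55.4, 84.7 and 68.1 CPM against 42.3 to 73.6 CPM (0.53 ± 0.18, adjusted p = 0.119), and it was called with sex as a covariate (adjusted p = 0.0339) and without NT 6 (adjusted p = 0.0147). In other edgeR fits its adjusted p was 0.607 with name form as a covariate, 0.677 without mouse B and 0.288 in the first deposited set alone. Summed over the 12 enzymes the level was 2020 to 2496 CPM at 42.4 mg/kg, inside the NT range of 1607 to 2821 CPM. The 3 genes that pass electrons from the acyl-coenzyme A dehydrogenases to the respiratory chain were at 0.11 ± 0.16 for Etfa, 0.23 ± 0.21 for Etfdh and −0.33 ± 0.37 for Etfb.

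Among the regulators, Ppargc1a, the coactivator PGC-1α of mitochondrial and fatty acid genes, was called (ENSMUSG00000029167, chromosome 5, 51611592-51725068, minus strand). Its level was 60.9, 164 and 86.9 CPM against 26.3 to 52.5 CPM with a median of 37.7 in NT, with no overlap (1.45 ± 0.25, adjusted p = 0.000911). Without mouse B the difference was 0.96 ± 0.27 (adjusted p = 0.109). The receptors themselves were not called. Ppara was at 1.64, 12.5 and 4.49 CPM against 2.06 to 6.68 CPM (0.53 ± 0.47, adjusted p = 0.74), so mouse A lay below every NT mouse and mouse B above. Ppard, which codes for PPARδ, was at 35.8, 77.5 and 39.8 CPM against 28.2 to 43.1 CPM (0.42 ± 0.21, adjusted p = 0.398).

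**Figure D2:**
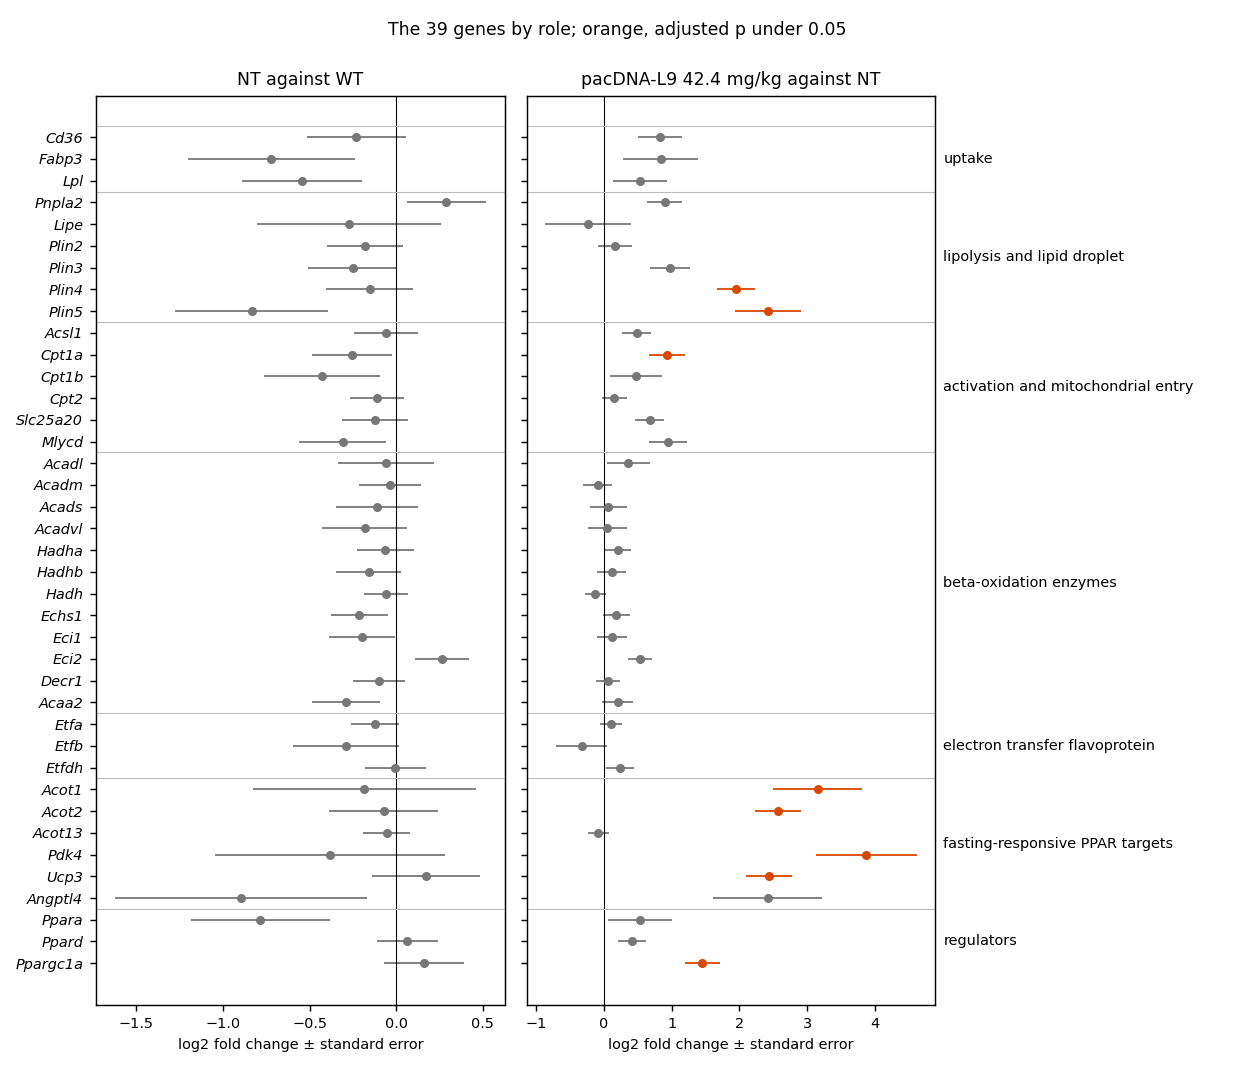
Log2 fold change of each of the 39 genes with a bar of 1 standard error to each side, by role, in NT against WT (left) and at 42.4 mg/kg against NT (right), each panel with its own horizontal range; orange points are called. At 42.4 mg/kg the 8 called genes lie at 0.93 to 3.88 while the 12 beta-oxidation enzymes lie at −0.13 to 0.53, and in NT against WT no gene is called.

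The 3 mice at 42.4 mg/kg did not respond evenly. Mouse B was highest and mouse A lowest of the 3 in all 8 called genes, and over the 39 genes mouse A was lowest in 35 and mouse B highest in 20. Without mouse B 4 of the 8 remained called, and with name form as a covariate 4 did, which were Acot2, Plin4 and Ucp3 in both cases with Pdk4 in the first and Ppargc1a in the second. Without NT 6, the only NT library named by group and running number, 12 genes were called. With sex as a covariate 12 were called, and with DESeq2 11 were. The share of 3.14% of all genes called belongs to the main fit. The shares in these other fits are not given here, so their counts lack that background. In 7 of the 39 genes (Acot2, Pdk4, Plin4, Ucp3, Cpt1a, Ppargc1a and Angptl4) all 3 mice exceeded every one of the other 27 mice, which held for 1.15% of all genes. In 8 of 39 they exceeded the other 6 libraries of the same name form, which held for 3.86% of all genes.

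Against WT mice 8 of 39 genes were higher at 42.4 mg/kg and none lower, with 9.98% of all genes called and 6.13% called higher. This comparison shares the treated mice with the one against NT. Ucp3 (2.62 ± 0.39, adjusted p = 5.14e-05), Acot2 (2.50 ± 0.38, adjusted p = 6.41e-05), Plin4 (1.80 ± 0.31, adjusted p = 0.000267), Ppargc1a (1.61 ± 0.28, adjusted p = 0.000273) and Pdk4 (3.49 ± 0.86, adjusted p = 0.00996) were called against WT in all 42 alternative fits. Pnpla2, the triglyceride lipase, was at 241, 303, 186, 333 and 330 CPM in WT, below all 3 treated mice (1.19 ± 0.28, adjusted p = 0.00556). Eci2 was at 48.8, 33.9, 33.8, 39.9 and 43.1 CPM in WT, again with no overlap (0.80 ± 0.19, adjusted p = 0.00672). The calls of Pnpla2, Eci2 and Acot1 (2.97 ± 0.75, adjusted p = 0.00983) were lost with name form as a covariate and without mouse B, at adjusted p up to 0.0835, 0.12 and 0.223. The median difference of the 39 genes from WT was 0.15, with 23 positive, and the 12 enzymes of beta-oxidation had a median of −0.05.

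At lower doses and with the other agents none of the 39 genes was called against NT. At 21.2 mg/kg 0.0685% of all genes were called, and the 39 differences had a median of 0.14. Pdk4 was at 172, 71.6 and 748 CPM, Ucp3 at 78.8, 56.6 and 210 CPM and Plin4 at 246, 102 and 309 CPM in mice A, B and C. Mouse C was the highest of the 3 in each, and Ucp3 in mouse C and Plin4 in mice A and C exceeded the highest NT mouse. An unadjusted p under 0.05 was reached by 2 of 39 genes, Ppara (1.03 ± 0.45) and Cpt1b (0.77 ± 0.37), both at an adjusted p of 1 in the edgeR fit, and DESeq2 called 0 of 39.

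At 5.3 mg/kg of pacDNA-L9 0% of all genes and 0 of 39 were called, with 0 of 39 at an unadjusted p under 0.05 and a median of 0.16. Pdk4 was at 58.7, 295, 440 and 619 CPM in mice A to D and Ucp3 at 48.5, 93.0, 92.9 and 126 CPM, so both overlapped the NT range. Free L9 gave 0.942% of all genes called. Here Plin4 was at 81.8, 104 and 137 CPM (−0.79 ± 0.31, adjusted p = 0.25) and Ucp3 at 35.3, 62.2 and 64.0 CPM (−0.96 ± 0.39, adjusted p = 0.269), the 2 of 39 with an unadjusted p under 0.05. Neither passed the adjusted threshold, and leaving out free L9 C brought 1 call, of Acadvl, 38.2% of whose exon bases overlap exons of Dvl2 on the opposite strand. Free L9 B held the fewest detected genes of all libraries and was at 30.6 CPM for Acadvl and 16.6 CPM for Mlycd, below every other mouse in both. Brush and pacDNA-Scr each gave 0% of all genes and 0 of 39 called against NT, with 0 of 39 at an unadjusted p under 0.05 in either, and DESeq2 called 0 of 39 in each of these groups. With 2 mice a group the intervals were wide. Pdk4 was at 103 and 136 CPM with Brush (−1.14, 95% interval −3.11 to 0.84) and at 135 and 129 CPM with pacDNA-Scr (−0.99, 95% interval −2.94 to 0.96).

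Conjugated and free L9 can be compared at the same dose of 5.3 mg/kg. The conjugate carries the bottlebrush polymer, and the free compound does not. Free L9 A and B had column names of group and running number alone, and no mouse given 5.3 mg/kg of the conjugate did. Within the first deposited set, agent and name form therefore cannot be told apart. No gene of the 39 was called between them, against 0.719% of all genes. An unadjusted p under 0.05 was reached by Plin3 (0.87 ± 0.35, 95% interval 0.18 to 1.55, adjusted p = 0.319), Acadvl (0.80 ± 0.33, interval 0.15 to 1.45, adjusted p = 0.341) and Plin4 (0.74 ± 0.34, interval 0.08 to 1.41, adjusted p = 0.41), all higher with the conjugate. Without free L9 C, Acadvl and Plin3 were called, but the free L9 libraries that remained were A and B, which had that name form. For Ucp3 the difference was 0.67 with a 95% interval from −0.16 to 1.50, which includes no difference as well as a change larger than 2-fold.

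The doses of pacDNA-L9 were also compared with each other. Against 21.2 mg/kg, 3 of 39 genes were higher at 42.4 mg/kg, Acot2 (2.41 ± 0.46, adjusted p = 0.0127), Ucp3 (2.38 ± 0.49, adjusted p = 0.0218) and Plin4 (1.73 ± 0.38, adjusted p = 0.0291), beside 0.639% of all genes. None of these 3 calls held with name form as a covariate, without mouse B, or without mouse B of the 21.2 mg/kg group, and the highest adjusted p over all alternatives was 0.168 for Acot2, 0.188 for Ucp3 and 0.285 for Plin4. Pdk4 differed by 4.12 ± 1.15 (adjusted p = 0.113). Against 5.3 mg/kg, 4 of 39 were higher, Ucp3 (2.73 ± 0.45, adjusted p = 0.00205), Plin4 (2.00 ± 0.36, adjusted p = 0.00315), Ppargc1a (1.75 ± 0.32, adjusted p = 0.00381) and Acot2 (2.09 ± 0.43, adjusted p = 0.0126), beside 1.19% of all genes. Without mouse B Ucp3 alone remained called, and Acot2 was also lost without mouse A of the 5.3 mg/kg group, with name form as a covariate and in the first deposited set alone, at adjusted p up to 0.205. All comparisons of the 42.4 mg/kg group share its 3 mice, and those against NT share the NT mice.

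**Figure D3:**
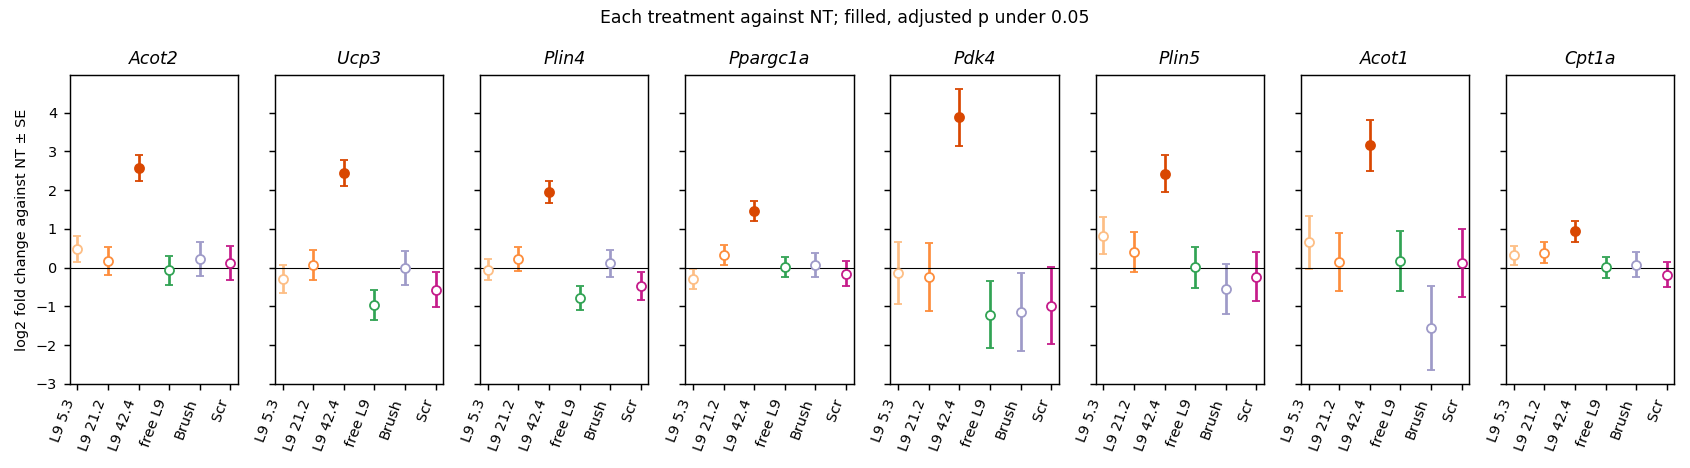
Log2 fold change against NT with a bar of 1 standard error to each side in each treated group, for the 8 genes called at 42.4 mg/kg, from the fit over 30 libraries; filled points are called and labels are as in the plot by mouse. At 42.4 mg/kg the points lie at 0.93 to 3.88. No gene is called at 21.2 or 5.3 mg/kg, with free L9 or pacDNA-Scr at 5.3 mg/kg, or with Brush at 40 nanomoles.

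Genes of neighbouring pathways placed these values among other changes of metabolism. Of 52 further fatty acid genes tested, 2 were higher at 42.4 mg/kg against NT with a median of 0.10: Lpin1, a phosphatidate phosphatase that also acts as a coactivator of fatty acid oxidation genes (1.46 ± 0.22, adjusted p = 0.000163), and Hsd17b4, an enzyme of peroxisomal beta-oxidation (0.62 ± 0.13, adjusted p = 0.00601). The respiratory chain gave 0 of 76 nuclear-encoded genes called with a median of −0.05, and its summed level was 24996 to 27737 CPM against 23335 to 34633 CPM in NT. For the citric acid cycle and pyruvate dehydrogenase it was 0 of 19 (median −0.05), for mitochondrial membrane and biogenesis genes 0 of 22 (median 0.00) and for glycolysis 0 of 16 (median −0.09). Mitochondrially encoded genes took 7.28% to 8.51% of counts at 42.4 mg/kg and 6.17% to 8.97% in the NT mice of the first set. In NT against WT the further fatty acid genes had 4 called higher and 5 lower, among them Ucp2, a relative of Ucp3 (1.63 ± 0.31, adjusted p = 0.00122), and Acot7, a thioesterase (−1.11 ± 0.20, adjusted p = 0.000621).

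The list with most calls was that of known FoxO and glucocorticoid receptor targets, genes of muscle protein breakdown, autophagy and stress. At 42.4 mg/kg 18 of 26 were higher than in NT with a median of 1.47, and in NT against WT 0 of 26 were called by edgeR. Trim63, the muscle ubiquitin ligase MuRF1, differed by 2.50 ± 0.28 (adjusted p = 2.27e-06). Gabarapl1, of the autophagosome, differed by 1.47 ± 0.17 (adjusted p = 3.49e-06), and Mt2, a metallothionein, by 4.84 ± 0.62 (adjusted p = 2.93e-05). Without mouse B 8 of 26 were called, and with name form as a covariate 13 were. The shares of all genes called in these fits are not given here. This list was drawn up with earlier results of these data known, so its count is not independent evidence of its direction.

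**Figure D4:**
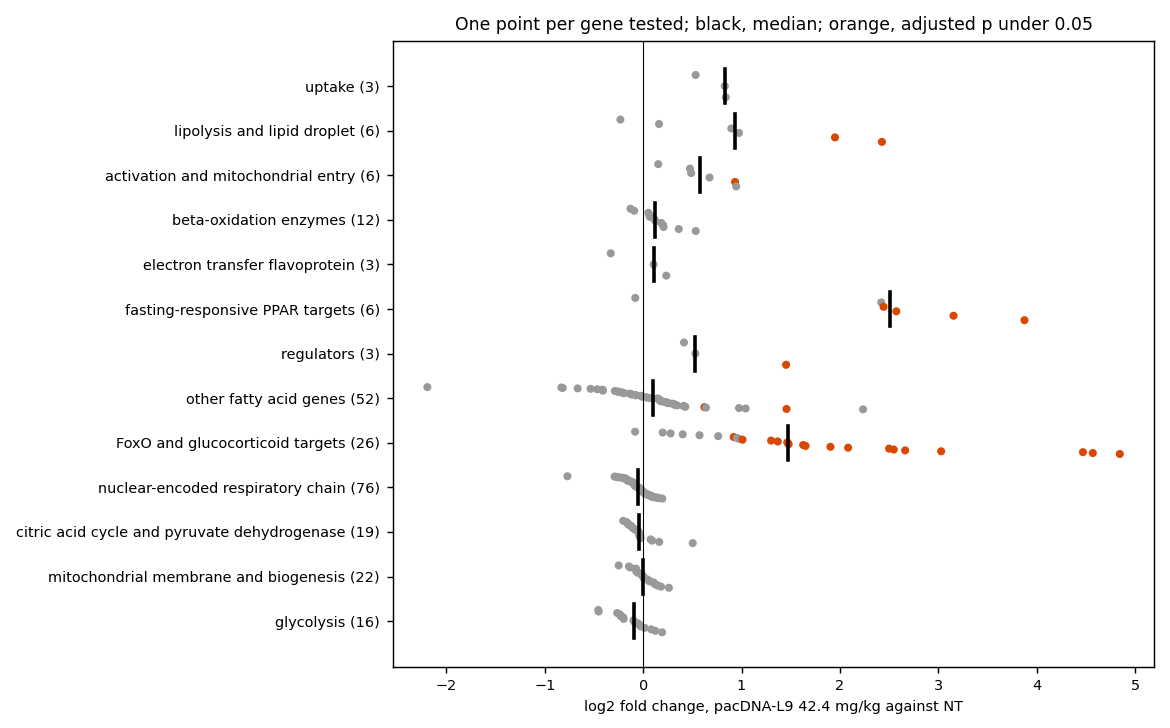
Log2 fold changes at 42.4 mg/kg against NT of the genes of each list, 1 point a gene with a black bar at the median of the list and the number of genes tested beside its name; orange points are called. The fasting-responsive targets (median 2.51) and the FoxO and glucocorticoid targets (median 1.47) lie to the right, and the respiratory chain (median −0.05) and beta-oxidation enzymes (median 0.12) lie near 0.

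Markers of muscle fibres and of other cells were read in the same way. The 11 skeletal muscle fibre markers gave 0 called with a median of 0.01, and Acta1, the actin of the skeletal muscle fibre, was at 19506 to 57539 CPM over the 30 libraries. Slow and oxidative fibre markers gave 0 of 9 called but a median of 2.28, which was 0.59 with name form as a covariate, and their summed level was 1677 to 4332 CPM at 42.4 mg/kg and 522 to 3958 CPM in NT. Macrophage markers were called higher in 6 of 10 with a median of 1.40, led by Lyz2 (2.53 ± 0.26), Cd68 (2.07 ± 0.30) and C1qb (1.81 ± 0.31), and their summed level was 251 to 371 CPM at 42.4 mg/kg, 123 to 275 CPM at 21.2 mg/kg, 191 to 212 CPM with Brush and 66.3 to 131 CPM in NT. Adipocyte markers, of cells that also express Lpl, Cd36, Lipe, Plin4 and Angptl4, gave 0 of 12 called with a median of −1.35, and summed to 1368 to 1845 CPM against 1110 to 7112 CPM in NT. The highest NT value came from NT 4 alone, and the next was 2192 CPM. In NT the marker Car3 had a mean of 1202 CPM, of a mean sum of 2324 CPM. None of the 5 brown adipocyte, 10 endothelial or 6 fibroblast markers was called. Ucp1, the defining gene of brown fat, ranged from 0 counts, in 7 libraries, to 5511 counts. The brown adipocyte markers summed to 224 to 304 CPM at 42.4 mg/kg and 80.9 to 490 CPM in NT. Cox8b, 1 of these markers, held 1304 to 9742 counts over the libraries, also where Ucp1 had 0. The sum is therefore not a measure of brown fat alone. No marker list shares a gene with the 39. The part of these cell types in the differences was not tested.

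**Figure D5:**
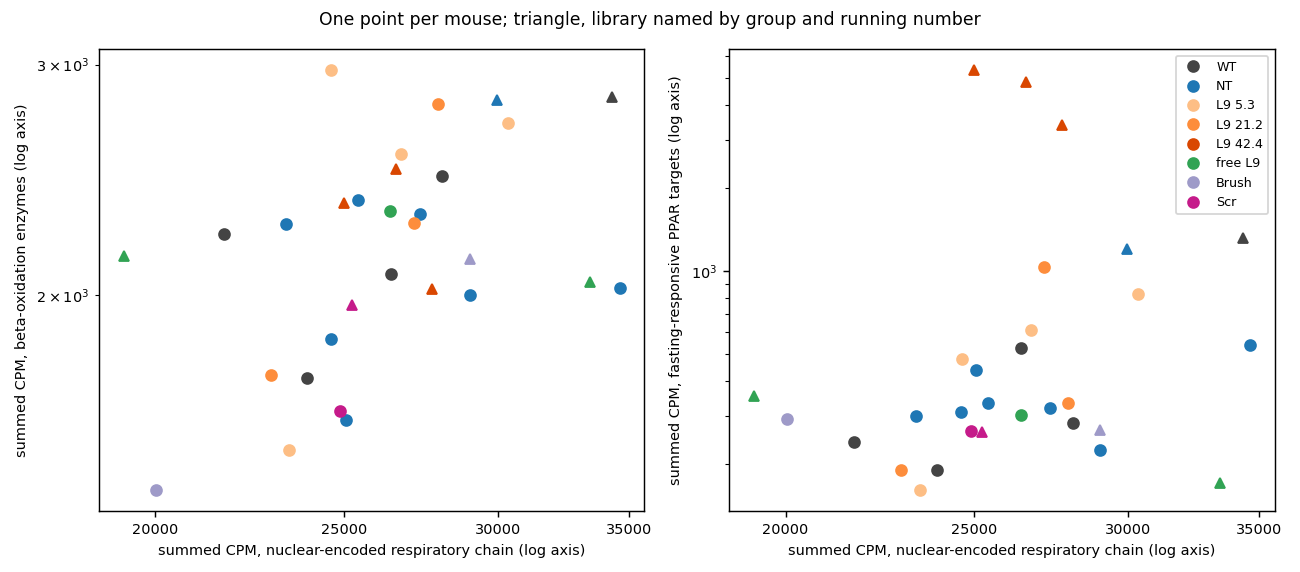
Summed level in CPM of the beta-oxidation enzymes (left) and of the fasting-responsive targets (right) against that of the nuclear-encoded respiratory chain, all on log axes, 1 point a mouse coloured by group, with triangles for libraries named by group and running number. The fasting-responsive targets sum to 3387 to 5343 CPM in the 42.4 mg/kg mice, above all other mice, whereas the beta-oxidation enzymes at 2020 to 2496 CPM lie inside the NT range. Pdk4 makes up most of the sum of the fasting-responsive targets at 42.4 mg/kg, with a mean of 3849 of 4523 CPM.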

How the data were processed

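Poly(A)-enriched RNA of quadriceps was sequenced in 30 mice, and the authors deposited 1 table of raw counts per gene, with no normalization. The submitters' notes name HISAT2 2.0.5, DESeq2 and GRCm39, while the methods of the study name Rsubread. The strand setting and the treatment of reads with several matches are not given in the sources used here. Ensembl identifiers were paired with symbols through GENCODE release 39, which matched 56017 of 56748 rows. Groups came from the labels, and 1 WT column, called unnumbered here, was placed by its group name alone. Counts were tested with edgeR 4.0.16 (R 4.3.3, robust quasi-likelihood fit, filtering by expression, trimmed mean of M values) with 1 coefficient for each group and a term for the deposited set, and p-values were adjusted by Benjamini-Hochberg. Alternatives used DESeq2 1.42.0, other normalizations and filters, other covariates, and left out each library in turn. The fits were tested on simulated data.

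The 39 genes, the other lists and the tests were chosen with earlier results of these data known. Values by mouse or range were given for genes fixed by role and for every other gene called in any comparison. They were also given for the 5 with the smallest p in NT against WT and at 42.4 mg/kg against NT. From each further list at most the 3 genes with the smallest p in those comparisons were named. Car3 and Cox8b were also named for their part in a sum, and Xist for the reading of sex. The comparisons of 42.4 mg/kg with the lower doses, and the fits of DESeq2 with name form as a covariate, were added after seeing the data. Pairs of the 5.3 mg/kg and free L9 mice with the same letter deviated together from their group means (r = 0.530, 0.380 and 0.712 for A, B and C), so a replicate block was tried. In both groups A and B came from the first deposited set and C from the second, and these levels were not corrected for set. The correlations therefore cannot tell a pairing from the set, and 5.3 mg/kg B correlated best with free L9 A. No pair of libraries of the same group agreed within sampling noise, with a chi-square per degree of freedom of at least 17.7. Promoter sequences were taken from RefSeq (GRCm38.p6), and protein sequences were not used here.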

Additional observations from a re-analysis of the deposited data

Results flagged for a closer look

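The 39 genes in WT, NT and 5.3 mg/kg mice gave 117 groups of values. In 16 of them 1 mouse stood far from the others of its group by Dixon's test. For independent and normally distributed values chance would flag about 1 in 20 groups. The genes share the same mice and CPM need not be normally distributed, so that rate is no benchmark for the 16. NT 6 was the highest of the 8 NT mice in 7 of the 16, with Fabp3 at 511 CPM, Plin5 at 25.6 CPM, Slc25a20 at 71.8 CPM, Acadl at 405 CPM, Eci2 at 73.6 CPM, Acot1 at 3.27 CPM and Pdk4 at 923 CPM. NT 4 was the highest in 3, with Lipe at 131 CPM, Plin2 at 65.8 CPM and Angptl4 at 27.2 CPM, and NT 1 was the lowest for Plin3 at 11.4 CPM. The unnumbered WT mouse was the highest of the 5 WT mice for Acot2 at 16.1 CPM and Pdk4 at 1075 CPM. At 5.3 mg/kg mouse A was the lowest for Hadhb at 189 CPM and Etfa at 137 CPM, and mouse B stood apart for Cpt2 at 122 CPM.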

How the results depend on the processing

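Of the counts of called genes recomputed under alternatives, 451 stayed within 1.5 times the count reported and 16 moved. Counts of 0 that stayed 0 are among the 451, so this tally says little of the counts above 0, which are given below. Of the recomputed calls of single genes and medians over the 39 genes, 910 kept direction and side of the threshold, 64 calls were lost, 1 median moved and none was reversed. The count of 8 at 42.4 mg/kg against NT was 11 with DESeq2, 4 with library name form as a covariate, 5 with DESeq2 and that covariate, and 4 (without 42.4 mg/kg B) to 12 (without NT 6) when single libraries were left out. Against WT the count of 8 was 5 with the covariate, 5 with DESeq2 and the covariate, and 5 to 9 leaving out libraries. Against 21.2 mg/kg the count of 3 was 6 with DESeq2, 1 with no filter on low counts, 0 with the covariate and 0 to 4 leaving out libraries, and against 5.3 mg/kg the count of 4 was 1 to 6 leaving out libraries. Counts of 0 became 1 at most for free L9 against NT (0 to 1, Acadvl, without free L9 C) and 2 at most for 5.3 mg/kg against free L9 (0 to 2, Acadvl and Plin3, without free L9 C). The cause of these changes was not tested, and the share of all genes called in each alternative is not given here. The median of the 39 genes at 42.4 mg/kg against NT, 0.48, was 0.05 with name form as a covariate and 0.23 over the more highly expressed genes alone.

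A replicate block by number in WT and NT called 1 gene, Ppara, lower in NT, and same-numbered mice correlated at r = 0.164, −0.047, 0.113 and 0.192, with not every pair over 0.1, so the number was not taken as a pairing. As a hint from the data and not from the design, 3 of these 4 WT mice correlated best with the NT mouse of their own number. The block by letter of 5.3 mg/kg and free L9 gave 0 calls and changed no other call. Groups of 2 or 3 mice limit what could be detected, and Acot1, Cpt1a and Cpt1b rest on few counts.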
